A study of Mus musculus with 2 samples.

Results

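The Myc and Pvt1 domain of the mouse is a stretch of chromosome 15 with 2 named members: Myc, which codes for a transcription factor of cell growth and division, and Pvt1, a long noncoding RNA gene next to it. Both were taken from GENCODE release M21 on mm10. Myc (ENSMUSG00000022346.15) lies at chr15:61985391-61990374 on the plus strand, and Pvt1 (ENSMUSG00000097039.8, annotated as a lincRNA) at chr15:62037986-62378096 on the same strand. The window ran from 1 Mb before Myc to 2 Mb past it (chr15:60985391-63990374), and a peak belonged to it when its summit lay inside. It held 47 of the 74283 chromosomal peaks in the authors' optimal list, 47 of 72171 in their conservative list, 218 of 299926 in the relaxed list of both replicates together, 234 of 299929 in the relaxed list of replicate 1 and 280 of 299930 in that of replicate 2. Of the 39 genes with a start in the window, 6 are protein coding.

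CTCF was mapped by ChIP-seq, which sequences the DNA recovered with a protein by an antibody, in whole stomach of newborn B6NCrl mice (age 0 days, sex not collected). There was 1 group of 2 biological replicates, with no treatment or altered gene named in the labels, so no contrast between conditions could be made. Both replicates carry the same donor and tissue sample label, so the spread between them may be technical. Binding of CTCF does not measure expression, and the tissue label could not be checked here against marker genes; peaks of a whole organ mix all its cell types.

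CTCF is a zinc finger protein that binds a long, directional motif and holds cohesin in place, and chromatin loops often join sites whose motifs point toward each other. Myc sits in a large gene desert that holds distant enhancers active in different tissues, and CTCF sites next to its start are a known landmark of the locus. Pvt1 is known for amplification together with Myc in tumours and for a promoter that can compete with that of Myc for enhancers.

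A CTCF motif matrix of 16 positions, learnt from peaks of chromosome 1, was found within 50 bp of 22 of the 47 summits. The sequences below are the ones the account turns on, from the mm10 reference, each 5′ to 3′ on the strand that carries the match, with the 16 matched bases in capitals. The first stands just before Myc, and the second is the single match among the Pvt1 peaks, on the opposite strand.
Myc upstream site, chr15:61983425-61983450, plus strand: ctgtgGCCAGTAGAGGGCACActtac
Pvt1 site, chr15:62334794-62334819, minus strand: gggacTCCAGCAGGTGGCCCCtgaac
The next were the strongest peak of the window, on the left side, and the 2 strongest on the right.
Gm38563 site, chr15:61157694-61157719, plus strand: aatcaGCCACACGATGGCAGCacaag
Right side site 1, chr15:63652717-63652742, minus strand: atactGGCAGCAGGGGGCGCTcttgc
Right side site 2, chr15:63771773-63771798, minus strand: ttgtcGCCAGCAGATGGCAGCattgt
The last 3 lie in introns of Gsdmc, Gsdmc3 and Gsdmc4 and are shown because they are near copies of each other.
Gsdmc site, chr15:63780572-63780597, minus strand: aggagGCCAGAAGAGGGTGCTgccgt
Gsdmc3 site, chr15:63862151-63862176, minus strand: aggagGCCAGAAGAGGGCGCTgctgt
Gsdmc4 site, chr15:63895742-63895767, minus strand: aggagGCCAGAAGAGGCCGCTgccgt

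Around Myc, 4 CTCF peaks stood close together, the strongest before the gene and 2 inside its untranslated exons. Pvt1 had 8 peaks inside its body, with a median signal of 43.6, and none at its start. On the left, motifs pointed mostly toward Myc, and from Pvt1 rightward every motif called up to the Gsdmc genes pointed back toward it. The signal used throughout is the value the authors deposited for each peak, as their caller gave it. It is not scaled between lists, so it ranks peaks only within a list. In the window, the signal in the optimal list was 1.00 times the sum of the 2 replicate signals at the median (range 0.975 to 1.18), so it is not a measurement apart from them.

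**Figure D1:**
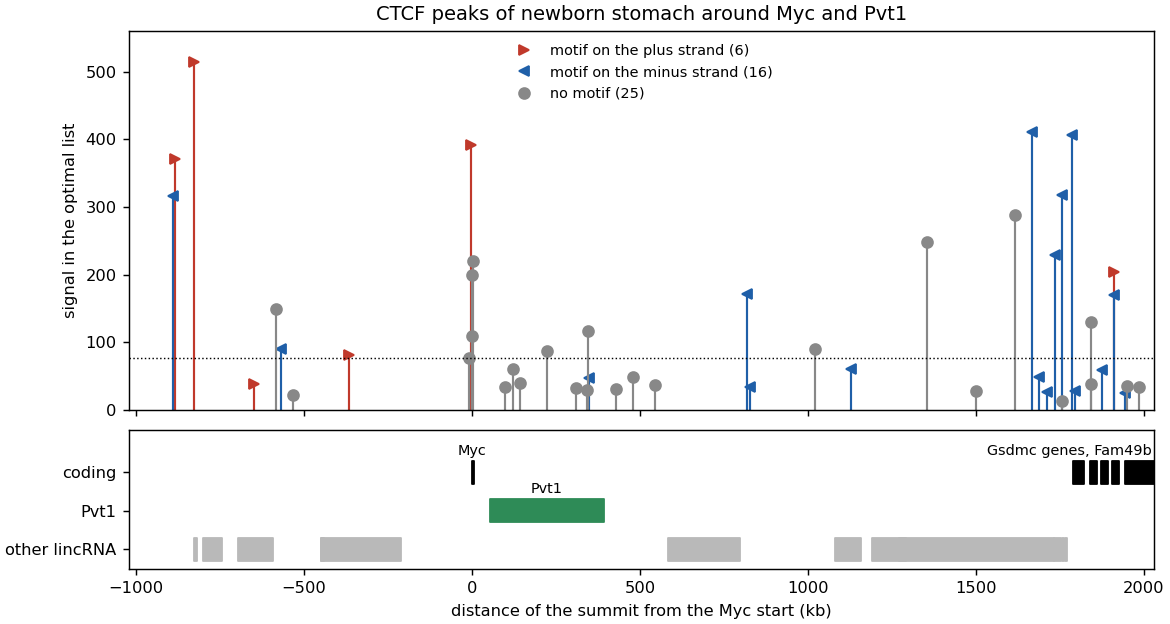
Signal of the 47 optimal peaks (upper panel) against the distance of the summit from the Myc start in kb, with arrowheads for the motif strand, circles for peaks without the motif and a dotted line at the median of all 74283 peaks. The lower panel draws the coding genes, Pvt1 and other lincRNA genes: the highest peaks stand near the left end, at Myc and toward the Gsdmc genes, and those across Pvt1 run from 28.9 to 117.

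At Myc, the strongest peak lay 1958 bp before the first annotated start, with its summit at 61983433. Its signal was 391 in the optimal list, 214 in replicate 1 and 177 in replicate 2, above that of 91.6% of optimal peaks. The summit was 131 bp from the start of Gm37947, a gene model still to be experimentally checked, and it was the single peak within 2.5 kb of the Myc start with the motif. Its motif score was 20.2 bits against a threshold of 13.4 bits.

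The remaining 3 lay within 1 kb of an annotated Myc start and had no match. The peak 921 bp before the first start had a signal of 109 in the optimal list, 68.8 in replicate 1 and 43.2 in replicate 2. The peak at 61985583, 192 bp past the first start and 19 bp past that of transcript Myc-202, had signals of 200, 119 and 80.7 in the same order. The peak at 61987140, 106 bp past the start of Myc-203, had 221, 143 and 79.2. Both of the last lie in untranslated exon sequence of Myc, and each exceeded the peak 921 bp before the gene in both replicates. The order of the pair differed between replicates: the Myc-203 peak was higher in replicate 1, and the Myc-202 peak by a small margin in replicate 2.

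**Figure D2:**
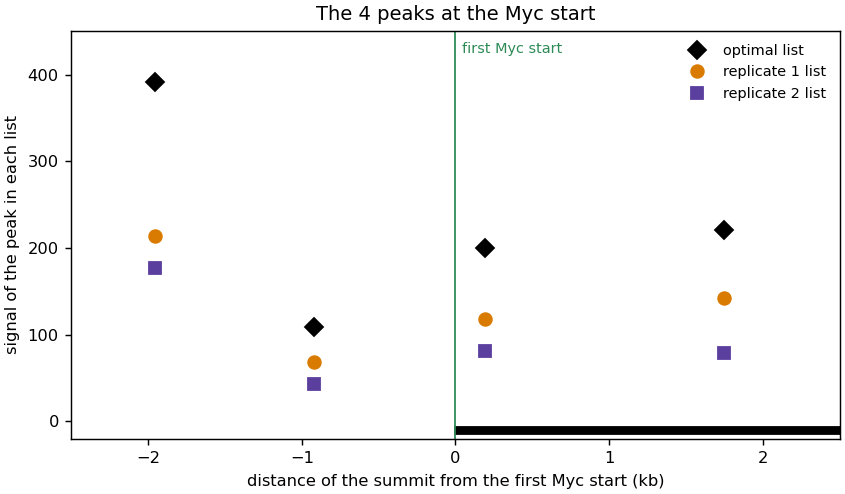
Signal of the 4 peaks nearest the Myc start against distance from the first start in kb, in the optimal list (diamonds), replicate 1 (circles) and replicate 2 (squares), with the gene as a black bar. The peak at −1.958 kb is highest in all 3 lists, and the 2 inside the gene change order between the replicates.

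Sequence at the Myc peaks was rich in GC and CpG. Within 50 bp of each of the 4 summits, GC ran from 57.4% to 65.3% and CpG from 7 to 10, against medians of 52.5% and 1 over all optimal peaks. The best match at the Myc-202 peak scored −0.35 bits and that at the Myc-203 peak 10.9 bits. The letters CCCTC, searched on both strands and part of what the matrix reads, occurred 2 times at the upstream site and 1 time at the Myc-202 peak, and 49.0% of all optimal windows hold them. The E-box CACGTG, the letters that Myc and Max bind, was in none of the 47 windows and in 2.11% of all. Peaks near coding starts had the motif in 25% of cases over the whole genome, and other peaks in 62.1%.

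The 4 summits spanned 3707 bp. Of 21853 coding genes, 136 (0.622%) had as many summits within 2.5 kb of the first start, a distance chosen after the values were seen. One more peak stood further before Myc, at 61975221, with signals of 76.4, 48.1 and 26.6 and no motif. The conservative list added a weak peak inside Myc at 61988338, with a signal of 23.0. Among 8647 coding genes with values in all 3 lists, the start peaks closest in signal to the Myc-203 peak were those of Mthfd2l, Dapk2, Tomm22, Celf5 and Gab1, by the sum of absolute log2 ratios. Their optimal signals ran from 220 to 224, and that of Dapk2 alone had the motif.

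Between Myc and Pvt1, a stretch of 47.611 kb, there was no optimal peak. The starts of Pvt1 carried none within 1 kb in the optimal or the conservative list. Its first start lay 52.595 kb past that of Myc, 50.846 kb after the Myc-203 peak and 45.817 kb before the first peak of its body. In the relaxed lists, weak peaks stood near the first starts in replicate 1, with signals of 4.41 and 4.26, and in the list of both replicates, with 8.25. Replicate 2 listed none there. Relaxed lists hold 300000 peaks each and include much that does not recur, so these low values do not show binding at the first Pvt1 starts. Near later Pvt1 starts, both replicates listed weak peaks. Those at 62218352 in replicate 1 and 62218357 in replicate 2, with signals of 5.74 and 2.99, recurred within 100 bp. Those at 62099019 in replicate 1 and 62099203 in replicate 2, with 6.26 and 3.14, did not. Whether the recurring weak peak marks binding was not tested.

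Inside Pvt1, all 8 peaks lay in introns, spread unevenly over the gene. The strongest stood at 62331355, with signals of 117 in the optimal list, 69.3 in replicate 1 and 46.9 in replicate 2. With it, the peaks at 62328483 (28.9, 12.8 and 16.7) and 62334818 (47.2, 22.1 and 25.8) formed a group near the 3′ end of the gene. The last of these carries the minus strand motif printed above, and the peaks at 62328483 and 62334818 were higher in replicate 2 than in replicate 1. The peak at 62210032 had signals of 87.3, 51.2 and 35 and was the second strongest of the gene.

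The other 4 had signals from 32.5 to 60.5 in the optimal list. The peak at 62106764, with 60.5, 39.0 and 22.2, lay 423 bp from the start of Gm27718, a small noncoding RNA model inside Pvt1. The peaks at 62128664 (39.9, 20.2 and 18.4) and 62295546 (32.5, 20.4 and 12.5) were in both replicates. The peak nearest the Pvt1 start, at 62083803, had 33.5 in the optimal list, 25.8 in replicate 1 and 5.98 in replicate 2, a ratio of 4.32 between replicates. It was absent from the conservative list, and it was the 1 Pvt1 peak not counted in both replicates.

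Pvt1 thus held peaks at an ordinary density and of low signal. It had 2.35 peaks per 100 kb, against a median of 2.15 over 536 genes within 100 kb of its length, 53.0% of which had fewer. The median signal of its peaks was 43.6, against 72.0 for the median of those genes, and 17.0% of the 524 genes with a peak had a lower median. Its highest signal exceeded the highest of 10.7% of them. This set of genes was chosen after the values were seen.

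**Figure D3:**
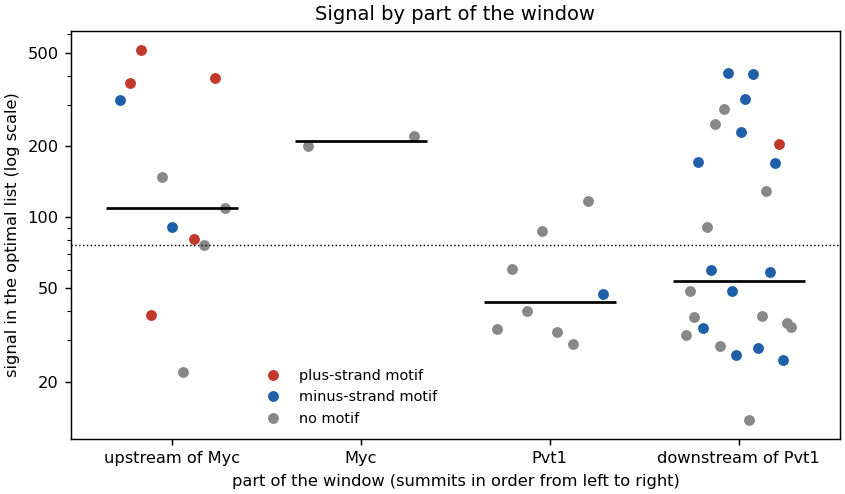
Signal in the optimal list (log scale) of each peak by part of the window, in order of position, coloured by motif strand, with bars at the medians and a dotted line at the median of all optimal peaks. The medians are 109 upstream of Myc, 210 for the 2 peaks in Myc, 43.6 in Pvt1 and 53.6 downstream of Pvt1.

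The gene desert was sparse on both sides. The window held 15.6 optimal peaks per Mb, against 31.0 on chromosome 15 and 30.3 on all autosomes. The stretch without coding genes from A1bg to Myc, 1062 kb long, had 11 peaks, or 10.4 per Mb. That from Myc to Gsdmc, 1786 kb long and including Pvt1, had 25, or 14 per Mb. From the near end of Gsdmc to the end of the window, over 214 kb, the density was 42.0 per Mb. The median distance between neighbouring summits was 33.0 kb in the window and 12.3 kb over all chromosomes. Of 46 gaps, 18 (39.1%) exceeded 50 kb, against 15.8% of all gaps.

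The longest gap, 356.444 kb, ended at the peak at 61975221, on the left of the Myc group, and 1.07% of all gaps were longer. The next longest, of 273.796 kb and 227.516 kb, lay past Pvt1. Peaks were also close in places: 8 gaps were under 5 kb, and the shortest, of 410 bp, was between 2 peaks in an intron of Gsdmc4.

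On the left side, the strongest peak of the whole window stood 142 bp from the start of Gm38563, a lincRNA gene, with its summit at 61157727. Its signals were 515 in the optimal list, 300.2 in replicate 1 and 216 in replicate 2. A pair of peaks stood further left, at 61102580 (371, 195 and 177, plus strand motif) and 61096619 (316, 179 and 140, minus strand motif). The fifth in rank after these and the Myc upstream site was at 61400932, with 149, 80.3 and 67.1 and no motif. The left side had a median signal of 109 over its 11 peaks, against 76.6 over all optimal peaks.

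On the right side, the 5 strongest peaks stood far from Myc, before the Gsdmc genes, which code for gasdermins, proteins that form membrane pores. They lay 36979 bp to 468112 bp from the nearest Gsdmc start. From the near end of Gsdmc to the window end, the median signal over 9 peaks was 37.9. The peak at 63652729 had signals of 411, 228 and 184, and that at 63771780, between Gsdmc and the desert, 407, 256 and 153. The peak at 63740751, in an exon of the lincRNA gene Gm41336 and 67 bp from its start, had 317, 171 and 148. These 3 carried minus strand motifs. The peaks at 63601753 (288, 169 and 123) and 63340647 (249, 146 and 104) lay in an intron of the lincRNA gene Gm41335 and had no motif.

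In the desert next to Pvt1 the peaks were low. The 3 that follow the gene had signals from 31.8 to 48.6 in the optimal list and no motif, before the gap of 273.796 kb. Downstream of Pvt1 the signals ran from 13.7 to 411 with a median of 53.6 over 26 peaks.

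Motifs on the 2 sides of Myc pointed opposite ways. Before the Myc start, 5 of 7 motifs were on the plus strand, which reads toward Myc. Past its end, 14 of 15 were on the minus strand, and between Myc and Gsdmc all 10 were. The plus strand motif of the Myc upstream site was followed by 13 minus strand motifs in a row, from the Pvt1 site to the Gsdmc4 site, over 1561 kb. Among 19997 runs of 1 strand over all chromosomes, 5 were as long or longer, this one included, and the median run was 2. The run and its length were noticed in the data and are given as a description. It includes the near copies in Gsdmc, Gsdmc3 and Gsdmc4, so its 13 motifs are not all separate sequences.

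The run depended on the motif threshold. The first peak past Pvt1, at 62413910, had a plus strand match of 13.28 bits, just under the threshold of 13.44 bits. Had it been called, it would have broken the run directly after the Pvt1 site. With a threshold met by 5% of control windows, chosen after the data were seen, 14 of 17 motifs between Myc and Gsdmc were on the minus strand and 7 of 9 before Myc on the plus strand. At 0.1%, 1 motif was left between Myc and Gsdmc, on the minus strand.

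Of 21 neighbouring motif pairs in the window, 3 were convergent (14.3%, exact Clopper-Pearson 95% interval 3.05 to 36.3%), 3 divergent and 15 on the same strand (71.4%). Over all chromosomes 23.8% of 41657 pairs were convergent, inside that interval, 23.9% were divergent and 52.3% were on the same strand. The middle convergent pair joins the 2 sites printed first above: the Myc upstream site, with a signal of 391, and the Pvt1 site, with 47.2, stood 351.385 kb apart. Contacts between sites were not measured here.

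The share of peaks with the motif, 22 of 47 (46.8%, interval 32.1 to 61.9%), is to be read against 56.4% of optimal peaks outside chromosome 1, which lies inside the interval. It was 7 of 11 upstream of Myc, 0 of 2 in Myc, 1 of 8 in Pvt1 and 14 of 26 downstream of Pvt1. Peaks with the motif had a median signal of 130 and those without 48.6, against 137 and 46.0 over all peaks. The motif lay within 10 bp of the summit for 18 of the 22, a share not given here for all motif peaks. Of the 22, 6 (27.3%) were in sequence masked as repeats, against 32.9% of all motif peaks.

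The sequences from Gsdmc, Gsdmc3 and Gsdmc4 differed from each other at 2 of 26 bases and were all masked. Their signals were 27.9, 58.6 and 169.7 in the optimal list. Reads from such near copies may be placed at more than one of them, so their separate values are uncertain.

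Most peaks of the domain were found in both replicates, at a share whose interval includes that of all optimal peaks. With a summit within 100 bp in the strongest 74283 peaks of each replicate, 43 of 47 peaks (91.5%, interval 79.6 to 97.6%) were in both, and the same rule took 83.2% of all optimal peaks. The count was 10 of 11 upstream of Myc, 2 of 2 in Myc, 7 of 8 in Pvt1 and 24 of 26 downstream. The 4 outside it had signals up to 34.0 and a median of 27.8, against 87.3 for the others. The rule is itself a signal cutoff in each replicate, so this difference was largely set in advance. A conservative peak lay within 100 bp of 44 of the 47, against 88.5% of all optimal peaks. The intervals cover counting error only, since peaks are not independent replicates. The optimal list had itself passed IDR, a filter that favours peaks of similar rank in both replicates. A high share in both was therefore partly set in advance.

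Signal was higher in replicate 1 for 41 of 47 peaks, against 88.5% of all optimal peaks matched in both relaxed lists. The median ratio of replicate 1 to replicate 2 was 1.37 in the window and 1.33 over all, so the median followed the difference between the 2 lists. Of the window peaks, 4 had a ratio below the 5th percentile of all optimal peaks (0.826) and 1 above the 95th (2.62). Across the 47 peaks Spearman's rho was 0.94, where the points share libraries and peak calling. The 6 peaks higher in replicate 2 were 2 in Pvt1 and 4 downstream of it. All 6 lay between 62328483 and 63113131, a stretch drawn around them after they were seen. Other peaks of that stretch were higher in replicate 1: those at 62331355, 62413910, 62802982 and 63006637, with ratios of 1.48, 1.27, 1.56 and 1.36. Whether this stretch differed from the rest was not tested.

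**Figure D4:**
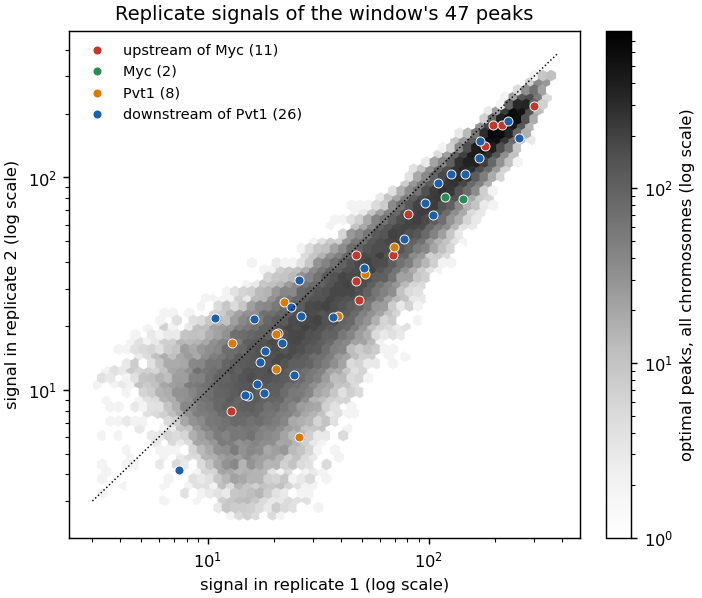
Signal in replicate 2 against replicate 1, both on log scales, for the window's 47 peaks coloured by part of the window, over the density of all optimal peaks matched in both lists (grey), with a dotted line of equal signal. The peaks lie within the grey cloud, 41 below the line, and the Pvt1 peak at 25.8 and 5.98 is the farthest below it.

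Below the optimal list, replicate 1 listed 186 peaks with no optimal summit within 300 bp, and 32 of them had a replicate 2 summit within 100 bp: 13 upstream of Myc, 11 in Pvt1, 8 downstream and none in Myc or between the genes. That share was 17.2% (interval 12.1 to 23.4%), and over all chromosomes it was 21.7%, inside the interval. The motif was in 3 of the 32 (9.38%) and in 3 of the 154 others (1.95%). The same shares over all chromosomes are not given here, so these small counts have no background. The 32 had a median signal of 4.97 in replicate 1 and 4.41 in replicate 2. The highest in replicate 1, at 61439937, had 16.3 and 12.4 and was in the conservative list. A Pvt1 peak at 62137346 had 11.2 in replicate 1 and 17.0 in replicate 2.

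At gene starts, Myc was the single coding gene of 6 in the window with an optimal summit within 1 kb, where 42.3% of all coding genes have one. The nearest summit was 19950 bp from a start of Gsdmc, 6781 bp for Gsdmc2, 7144 bp for Gsdmc3, 6765 bp for Gsdmc4 and 10528 bp for Fam49b, a gene of actin regulation. Of the 13 lincRNA genes, 2 had one, Gm38563 and Gm41336, against 14.4% of 5854 over the genome. Both of these peaks had the motif and were among the strongest of the domain.

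The partners and relatives of Myc elsewhere in the genome form a network: Max pairs with Myc, the Mxd proteins, Mxi1, Mnt and Mga pair with Max in its place, and Mlx with Mlxip and Mlxipl forms a parallel branch. Of a list of 14 such genes, 10 (71.4%) had a peak within 1 kb of a start, beside 42.3% of all coding genes. The count was 8 in the conservative list. The peaks of Mxd4 and Fbxw7 were above only 3.98% and 1.44% of optimal peaks. With so few genes, and no test run, the share is given as a description. The paralogs Mycn and Mycl had strong ones. Mycn had signals of 335 in the optimal list, 210 in replicate 1 and 127 in replicate 2 without the motif, and Mycl 401, 244 and 159 with it.

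Among the Max partners, Mxi1 had a signal of 316, Mxd3 115, Mnt 94.3, Mga 34.1 and Mxd4 18.5 in the optimal list. In the parallel branch, Mlxipl, a glucose-responsive factor, had 249 and Mlxip 63.2. Fbxw7, the ubiquitin ligase subunit that marks Myc for degradation, had 15.3. None lay within 1 kb of Max (nearest at 20879 bp), Mxd1 (1035 bp), Mlx (5002 bp) or Zbtb17 (13470 bp), a zinc finger partner of Myc. The median of the 10 strongest start peaks was 105, against 72.8 over all coding genes with one, and 4 of the 10 had the motif, against 27.3%.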

How the data were processed

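CTCF ChIP-seq peak lists of 1 group with 2 replicates were used, grouped by the labels. The signal of each peak and the −log10 q-value are as deposited by the authors, in mm10 per the labels. The summit offset in each list is in bp, as deposited. Per the descriptions deposited with the samples, the relaxed lists come from alignments with a control, and the optimal and conservative lists passed IDR, which favours peaks of similar rank in both replicates. What aligned the reads and called the peaks, and the settings of IDR, is not given in the sources used here. Control libraries and alignments are not analysed here, so the depth behind a peak is unknown. In the window the −log10 q-value ran from 3.70 to 5.12, and 43 of 47 peaks were at the highest value, so it did not rank them.

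Peaks on chromosomes were kept, 74283 of 74293 in the optimal list. The summit was the peak start plus the offset. A start peak had its summit within 1 kb of any annotated start. The motif matrix of 16 positions was learnt on chromosome 1, where 983 windows aligned out of the 1000 peaks of highest optimal signal, and its consensus was GCCACCAGGGGGCACT. A window of 50 bp either side of a summit had the motif at a score of 13.4 bits, met by 1% of 148566 windows 1 kb from optimal summits, some of which may hold other peaks. Plus strand means that the consensus reads on the plus strand. Neighbouring motifs were paired up to 1 Mb apart. The motif search and the peak matching were tested on simulated data. No hypothesis test was run. Alternatives were the conservative list, the stronger part of the optimal list, each replicate alone, other distances for shared summits and starts, and other motif settings.

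Named genes were Myc, Pvt1, the coding genes of the window, other window genes with a start peak, and 14 genes of the Myc network. Named sites were those at Myc, in Pvt1 and the 5 strongest on each side, and the 5 genes nearest to Myc in start signal were added. Other sites named were chosen after their values were seen. The members, lists and rules were chosen with earlier results of these data known. Python 3.11.15 was used with numpy 2.4.6, pandas 2.3.3, scipy 1.17.1 and matplotlib 3.10.9.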

Additional observations from a re-analysis of the deposited data

How the results depend on the processing

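Of 53 alternative values for 10 results, 39 stayed within the tolerance set for them: 1.5 times for a count, the 95% interval for a share of peaks or pairs, and the spread between replicates for the spacing and the Myc percentile. Keeping the stronger 37141 optimal peaks left 23 peaks in the window, 2 in Pvt1 and 11 downstream of it, put the median spacing at 62.0 kb, the Myc-203 peak above 48.0% of the list in place of 74.0%, the share found in both replicates at 100% and the network genes with a start peak at 6. The 8 peaks of Pvt1 thus rest mostly on peaks below the median signal. The share of all coding genes with a start peak among these stronger peaks is not given here, so the 6 network genes have no background. The median spacing of 33.0 kb was 32.4 kb in the conservative list and 32.4 kb without either replicate. With the whole relaxed lists, 100% of the peaks were in both replicates. The motif share of 46.8% was 10.6% at a threshold met by 0.1% of control windows, 72.3% at 5% (chosen after seeing the data) and 25.5% with 100 bp either side of the summit and its own threshold. The convergent share of 14.3% was 33.3% at 0.1%, inside its wide interval but more than 1.5 times higher. Only 5 window peaks had the motif at 0.1%, so that value rests on very few pairs. Leaving out a replicate gave 49 to 51 peaks in the window. No paired analysis was possible because there is 1 group. With 2 replicates of 1 tissue label, no spread between animals can be given, and read depth is unknown.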
